A study of Mus musculus with 9 samples.

Results

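Cells make sterols and fatty acids from the same starting unit, acetyl-CoA, along separate chains of enzymes, and 33 mouse genes of these chains and of their control are described here: 18 enzymes of sterol synthesis, 10 enzymes of fatty acid synthesis, elongation and desaturation, and 5 genes of regulation and sterol transport. They were taken as a list of gene names, and every probe set (the group of short probes that reads 1 transcript) annotated to 1 of these names was used. Of the 33 genes, 31 had 62 probe sets among the 22690 of the array, and signals of Acat2 and Insig1 are not analysed here. The data are 9 Affymetrix arrays of mouse cells in 3 groups of 3. Normal granulocyte-macrophage progenitors (GMP) were sorted from bone marrow. L-GMP are cells resembling GMP that were sorted from marrow with leukemia; the study's title names the oncogene as MLL-AF9, a fusion that arises in acute leukemia. A further 3 arrays carry code titles and give L-GMP as their source; they are called L-GMP-derived here and were taken for the cells propagated from L-GMP in vitro, the only kind in the study's design that is otherwise without arrays. The labels do not give the strain, age, culture conditions or the way the fusion was introduced. Nor do they state whether replicate arrays stand for different mice or cultures, so a p-value here reflects only variation among arrays, possibly technical.

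The sterol branch starts with Hmgcs1, runs through mevalonate and its phosphates to farnesyl diphosphate, turns into squalene and then lanosterol, and ends, after a run of changes to the ring and side chain, at cholesterol. Its genes are controlled together by the transcription factor encoded by Srebf2, which is held in the endoplasmic reticulum by Insig proteins when sterols are plentiful and is released when they are scarce. The fatty acid branch turns cytosolic citrate into acetyl-CoA (Acly), joins such units into palmitate (Fasn), and then lengthens (Elovl genes) and desaturates (Scd and Fads genes) the chain; the factor encoded by Srebf1 is its best known regulator. Dividing cells draw on both branches for membranes.

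Signals are the authors' array intensities on a linear scale. Fold changes were taken between group means of log2 signals after raising all signals below 62.4 to that floor, and are written as "at least" where the lower group had an array at the floor. Tests are limma's moderated test on all 9 arrays with Benjamini-Hochberg adjustment over 14578 probe sets, called at an adjusted p of 0.05. A probe set was tested if it exceeded 111 on at least 3 arrays; 51 of the 62 probe sets and 30 of the 33 genes were tested, and each gene stands for its brightest tested probe set unless another is named. The probe set of Acaca, the acetyl-CoA carboxylase gene, stayed below this limit on all arrays (29.6 to 91.4) and was not tested. Of the 51 probe sets, 11 would not have been tested without the L-GMP-derived arrays, so a rise there was built into their selection and their p-values are no support for one. These are the brightest ones of Mvk, Pmvk, Msmo1, Nsdhl and Me1, and dimmer ones of Mvd, Cyp51, Scd1, Scd2 (2 of them) and Me1. Because RNA of a whole sample was read, fewer cells of a type and less RNA per cell cannot be told apart.

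As facts of the whole set, Hoxa9, a known target of MLL fusions, read 1394 to 1745 in GMP, 5312 to 5617 in L-GMP and 5108 to 6003 in L-GMP-derived cells. Meis1, the other such marker looked at, was called higher in both leukemic groups than in GMP. Unlike Hoxa9, it was called lower in L-GMP-derived cells than in L-GMP (log2 difference -0.989). Of 7 markers of GMP and early granulocytes, all 7 exceeded the test limit on every GMP and L-GMP array and 5 on every L-GMP-derived array; their summed signal was 33398 to 34147, 24492 to 31636 and 22949.8 to 27374. In L-GMP-derived cells Cd34 lay at the floor on all arrays and Kit read 67.0 to 110.2, against 778 to 861 in GMP. The 4 macrophage markers summed to 5875 to 6843 in GMP, 7661 to 8967 in L-GMP and 1460 to 2002 in L-GMP-derived cells, with Mrc1 at the floor throughout. Csf1r carried that sum in GMP, at 5767 on average against 535 in L-GMP-derived cells. Adgre1 (375 and 984, adjusted p = 0.0329) and Cd68 (98.0 and 214, adjusted p = 0.000261) were higher in L-GMP-derived cells than in GMP. The 4 late neutrophil markers summed to 2047 to 7763, 5987 to 15954 and 537 to 2775. The 2 B cell markers summed to 375 to 400.0, 569.8 to 598 and 151 to 301, the 4 T and NK cell markers to 2791 to 3038, 2015 to 2463 and 666 to 695, and the 3 mast cell markers to 837 to 854, 409 to 2332 and 189 to 236, with Fcer1a at the floor in both leukemic groups and Cpa3 in L-GMP-derived cells. The 3 erythroid markers (659.9 to 802) and the 3 megakaryocyte markers (357 to 732) ranged over all 9 arrays as given. For beta-actin, control probes at the 3' end over those at the 5' end, a sign of RNA quality, gave a ratio of 6.99 to 8.12 in GMP, 4.87 to 5.56 in L-GMP and 6.93 to 7.18 in L-GMP-derived cells, lower in L-GMP and overlapping between the others. The same ratio for Gapdh overlapped in all groups (7.08 to 8.77, 6.17 to 11.6 and 5.86 to 9.22). Taken over control probes in the middle of the transcript instead, the beta-actin ratio did not overlap between any groups. It was 3.703 to 4.78 in GMP, at most 2.57 in L-GMP and 2.86 to 3.19 in L-GMP-derived cells. For Gapdh, that ratio was higher in GMP (2.06 to 2.24) than in L-GMP (1.804 to 1.903) and L-GMP-derived cells (1.74 to 2.006). The part of the markers and ratios in the results below was not tested. L-GMP-derived replicate 1 correlated with the others of its group at 0.958 and 0.964, against 0.989 between those, and counts without it are given below.

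Sterol synthesis genes were higher in L-GMP-derived cells than in either other group along nearly the whole chain, while fatty acid genes were split, with 5 of the 9 tested lower in L-GMP than in GMP. Against GMP, 15 of the 17 tested sterol enzyme genes were higher in L-GMP-derived cells and 0 lower, where 13.4% of all 8965 tested genes were higher and 10.7% lower. Their median log2 difference was 1.90, against 0.004 over all tested genes. Against L-GMP the count was again 15 higher and 0 lower, where 16.6% of all genes were higher and 14.1% lower, with a median of 1.58 against -0.004. Leaving out Mvk, Pmvk, Msmo1 and Nsdhl, which depended on the L-GMP-derived arrays for being tested, gave 11 of 13 in each of these comparisons. Without L-GMP-derived replicate 1, 2 or 3, it was 12 of 14 in each. Fdps, which passed the test limit on 0 GMP arrays, remains in these counts, and its call against GMP is no support for a rise. Of the 9 tested fatty acid genes, 5 were higher and 1 lower in L-GMP-derived cells than in GMP (median 0.60), and 6 were higher and 0 lower than in L-GMP (median 0.53). Without L-GMP-derived replicate 1 the former count stayed at 6 in all and the latter was 7. Leaving out Me1 gave 5 higher and 1 lower of 8 against GMP and 5 higher of 8 against L-GMP. The comparisons share arrays and are not independent of each other.

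Between L-GMP and GMP, the fatty acid genes that were called were all lower in L-GMP, and sterol genes were called in both directions; the branches were not tested against each other. Of the 9 fatty acid genes, 0 were higher and 5 lower in L-GMP (Fasn, Scd2, Elovl5, Elovl6 and Fads1), where 13.1% of all tested genes were higher and 12.8% lower; the median was -0.60 against -0.007 over all genes. Of the 17 sterol genes, 4 were higher (Fdps, Fdft1, Tm7sf2 and Sc5d) and 2 lower (Hmgcs1 and Sqle), with a median of 0.15. Fdps was tested only through arrays of the leukemic groups, so its call is no support for a rise. The sterol count of 6 ran from 4 to 6 when single arrays were left out, since Fdft1 and Sc5d were called narrowly. On a scale relative to the mean of GMP, the median over fatty acid genes was -0.52, -0.61 and -0.68 on the 3 L-GMP arrays and 0.34, 0.53 and 0.65 on the L-GMP-derived arrays. The same median over sterol genes was 0.33, 0.08 and 0.09 on the L-GMP arrays and 1.57, 1.97 and 2.25 on the L-GMP-derived arrays.

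**Figure D1:**
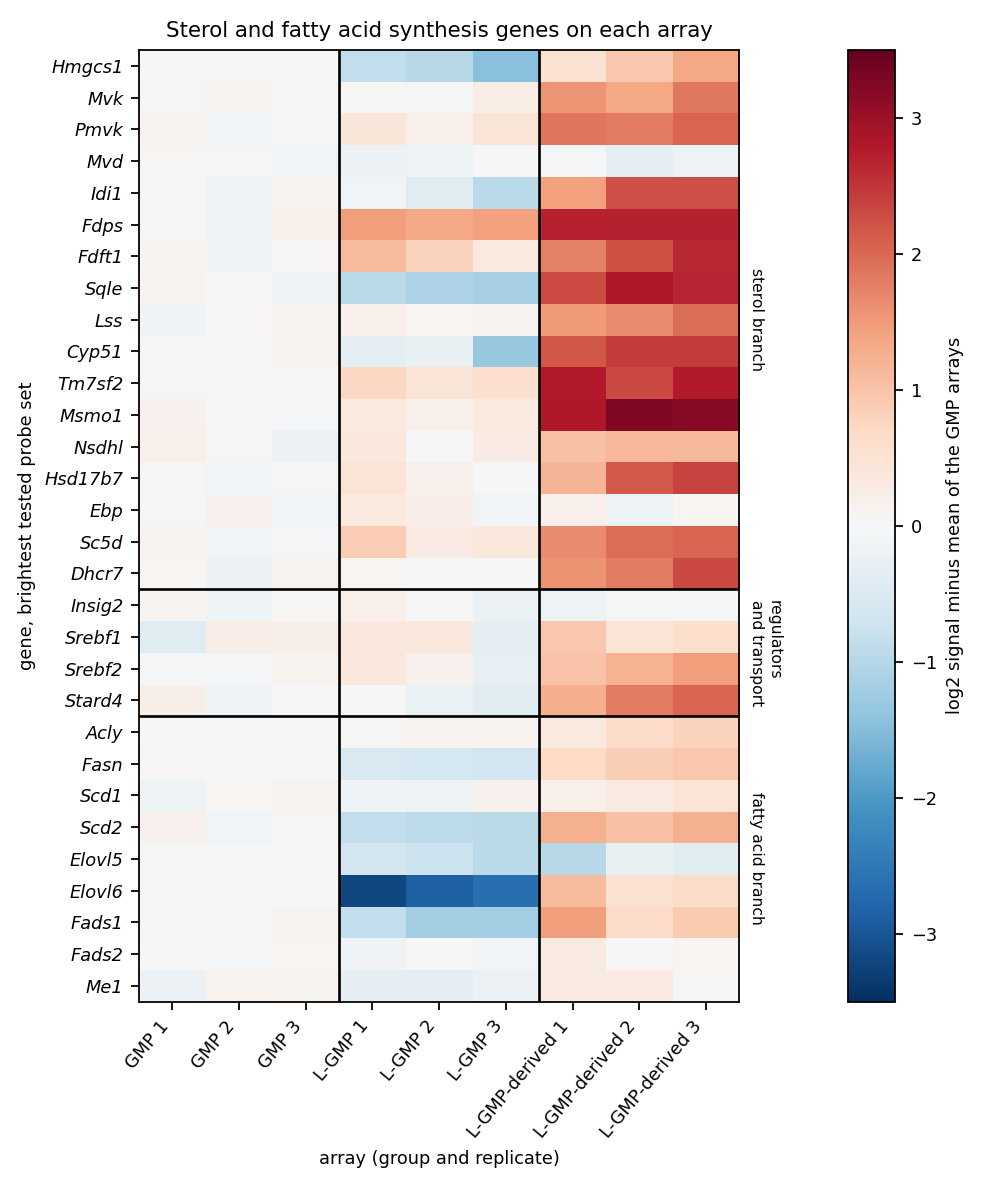
Heat map of 30 genes (rows, in pathway order) on 9 arrays (columns). Colour is the log2 signal of the brightest tested probe set minus the mean of the 3 GMP arrays. Most sterol rows are red on the 3 L-GMP-derived arrays, and Elovl6, Fads1, Scd2, Elovl5 and Fasn are blue on the 3 L-GMP arrays.

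At the entry of the sterol branch, Hmgcs1, the synthase that makes HMG-CoA, read 2236, 2235 and 2188 on the GMP arrays, 1228, 1134 and 802 on the L-GMP arrays and 3234, 4307 and 5631 on the L-GMP-derived arrays. The groups did not overlap, with L-GMP lowest and L-GMP-derived cells highest. It was 2.14-fold lower in L-GMP than in GMP (log2 difference -1.10 ± 0.20 SE, adjusted p = 0.00222), 1.93-fold higher in L-GMP-derived cells than in GMP (adjusted p = 0.00572) and 4.13-fold higher than in L-GMP (2.04 ± 0.20, adjusted p = 3.99e-05). Its other tested probe sets gave the same calls, with log2 differences of -1.14 and -1.03, 0.93 and 0.96, and 2.07 and 1.99 in that order of comparisons.

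Of the mevalonate enzymes, Mvk (mevalonate kinase) read 59.4 to 69.1 in GMP, 61.9 to 76.9 in L-GMP and 166 to 231 in L-GMP-derived cells, and was at least 2.98-fold higher in the latter than in GMP (adjusted p = 7.51e-05). A further probe set of Mvk, not tested, showed no such rise. It read 90.9 to 134, 70.6 to 129 and 99.5 to 108, overlapping in all groups. Pmvk (phosphomevalonate kinase) read 67.3 to 78.3, 81.0 to 97.5 and 252 to 294, a 3.76-fold rise (adjusted p = 6.25e-06). The rises of Mvk and Pmvk both rest on the selection named above. Idi1, the isomerase that makes the isoprenoid building blocks interconvertible, read 575, 513 and 595 in GMP, 524, 415 and 294 in L-GMP and 1521, 2672 and 2665 in L-GMP-derived cells. GMP and L-GMP overlapped and did not pass the test (log2 difference -0.49 ± 0.25 SE, adjusted p = 0.182; 0.0395 with array weights), while L-GMP-derived cells lay above both, 3.95-fold over GMP (adjusted p = 0.000271) and 5.54-fold over L-GMP (adjusted p = 5.4e-05).

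Fdps, which encodes farnesyl diphosphate synthase, rose in steps on its tested probe set. It read 81.6, 78.5 and 95.6 in GMP, 235, 216 and 230.0 in L-GMP and 560.1, 551 and 547 in L-GMP-derived cells. The spread within each group was small beside the gaps, and L-GMP was 2.67-fold above GMP (1.42 ± 0.11 SE, adjusted p = 1.34e-05) and L-GMP-derived cells 2.43-fold above L-GMP (1.28 ± 0.11, adjusted p = 2.4e-05). This probe set passed the test limit on every array of both leukemic groups and on 0 GMP arrays. A rise over GMP was therefore built into its selection, and its p-values against GMP are no support for one. The other probe set of Fdps, not tested, did not show these steps. It read 84.1 to 125 in GMP, 51.7 to 77.4 in L-GMP and 87.5 to 103 in L-GMP-derived cells, with L-GMP lowest. Fdft1, squalene synthase, which commits farnesyl units to sterols, read 269, 227 and 256 in GMP, 535, 441 and 315 in L-GMP and 854, 1170.3 and 1555 in L-GMP-derived cells. Its groups did not overlap. The rise in L-GMP (1.68-fold, adjusted p = 0.0382) did not pass without GMP replicate 1, 2 or 3 or L-GMP replicate 1 or 2, at adjusted p of 0.0672 to 0.131, nor without the filter on dim probe sets (0.122). L-GMP-derived cells were 4.63-fold above GMP (2.21 ± 0.23 SE, adjusted p = 8.83e-05). This probe set can also bind related transcripts, and the other tested probe set of Fdft1 gave 78.8 to 142, 132 to 293 and 124 to 193, with no call in any comparison.

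Sqle, the epoxidase that opens the way from squalene to the sterol ring, had the lowest values in L-GMP and the highest in L-GMP-derived cells. It read 161, 152 and 133 in GMP, 77.5, 69.8 and 66.6 in L-GMP and 722, 1039 and 932 in L-GMP-derived cells. L-GMP was 2.08-fold below GMP (-1.06 ± 0.15 SE, adjusted p = 0.0006), and L-GMP-derived cells were 5.99-fold above GMP (2.58 ± 0.15, adjusted p = 1.36e-06) and 12.5-fold above L-GMP (3.64 ± 0.15, adjusted p = 2.15e-07). The signals in L-GMP lay close to the floor, and a floor raised to the 40th percentile left a fall in L-GMP that missed the threshold (adjusted p = 0.0669). Lss (lanosterol synthase) followed at 136 to 164, 159 to 172 and 426 to 585, 3.25-fold higher in L-GMP-derived cells than in GMP (adjusted p = 1.4e-05). The probes of this set, and those of the brightest sets of Acly and Elovl5, may be shared with related transcripts. The other probe sets of Lss were not tested.

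Cyp51, the demethylase that acts on lanosterol, read 172, 171 and 196 in GMP, 142, 150.0 and 71.2 in L-GMP and 818, 973 and 978 in L-GMP-derived cells. L-GMP lay below GMP without overlap but did not pass the test (-0.65 ± 0.24 SE, adjusted p = 0.0783), except without L-GMP replicate 2 (adjusted p = 0.0433), with array weights (0.0380) or with the mean over its probe sets (0.0443). L-GMP-derived cells were 5.12-fold above GMP (adjusted p = 7.66e-05). Tm7sf2, a sterol reductase of the next step, read 142, 152 and 147 in GMP, 242, 201 and 223 in L-GMP and 1007, 729.5 and 1015 in L-GMP-derived cells. It rose 1.50-fold in L-GMP (0.59 ± 0.15, adjusted p = 0.0136) and 6.15-fold in L-GMP-derived cells over GMP (2.62 ± 0.15, adjusted p = 8.72e-07). Msmo1, the methylsterol oxidase, read 72.9, 27.4 and 49.5 in GMP, 82.8, 74.2 and 83.3 in L-GMP and 458, 616 and 593 in L-GMP-derived cells. It was at least 8.38-fold higher in L-GMP-derived cells than in GMP (adjusted p = 3.75e-07), and rests on the same selection.

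Of the late steps, Nsdhl, a sterol dehydrogenase, read 75.6 to 98.5 in GMP, 88.9 to 113 in L-GMP and 177 to 197 in L-GMP-derived cells (2.16-fold over GMP, adjusted p = 0.00046, again with that selection). Hsd17b7, a keto-reductase, read 127 to 138, 134 to 186 and 309 to 689 (3.74-fold, adjusted p = 0.000468), and its second probe set gave 1.55-fold (adjusted p = 0.0150). Dhcr7, the reductase that ends one route to cholesterol, read 215 to 272, 245 to 260.3 and 738 to 1223 (3.73-fold, adjusted p = 3.69e-05). Sc5d, a sterol desaturase, read 135, 117 and 122 in GMP, 232, 152 and 162 in L-GMP and 393, 487 and 510.2 in L-GMP-derived cells. Its 1.44-fold rise in L-GMP (adjusted p = 0.0477) did not pass without any 1 of GMP replicates 1 to 3, L-GMP replicates 1 and 3, or L-GMP-derived replicates 2 and 3 (adjusted p of 0.0581 to 0.149), nor without the filter (0.121), without the intensity trend (0.0526) or with the mean over its probe sets (0.199), while its 3.70-fold rise in L-GMP-derived cells over GMP had an adjusted p of 3.3e-05. Ebp, the sterol isomerase, was not called, and its arrays overlapped in all groups at 1136, 1293 and 1098, then 1473, 1367 and 1095, and 1329.8, 1033 and 1222. Its log2 difference between L-GMP-derived cells and GMP was 0.02 ± 0.14 SE (adjusted p = 0.939).

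**Figure D2:**
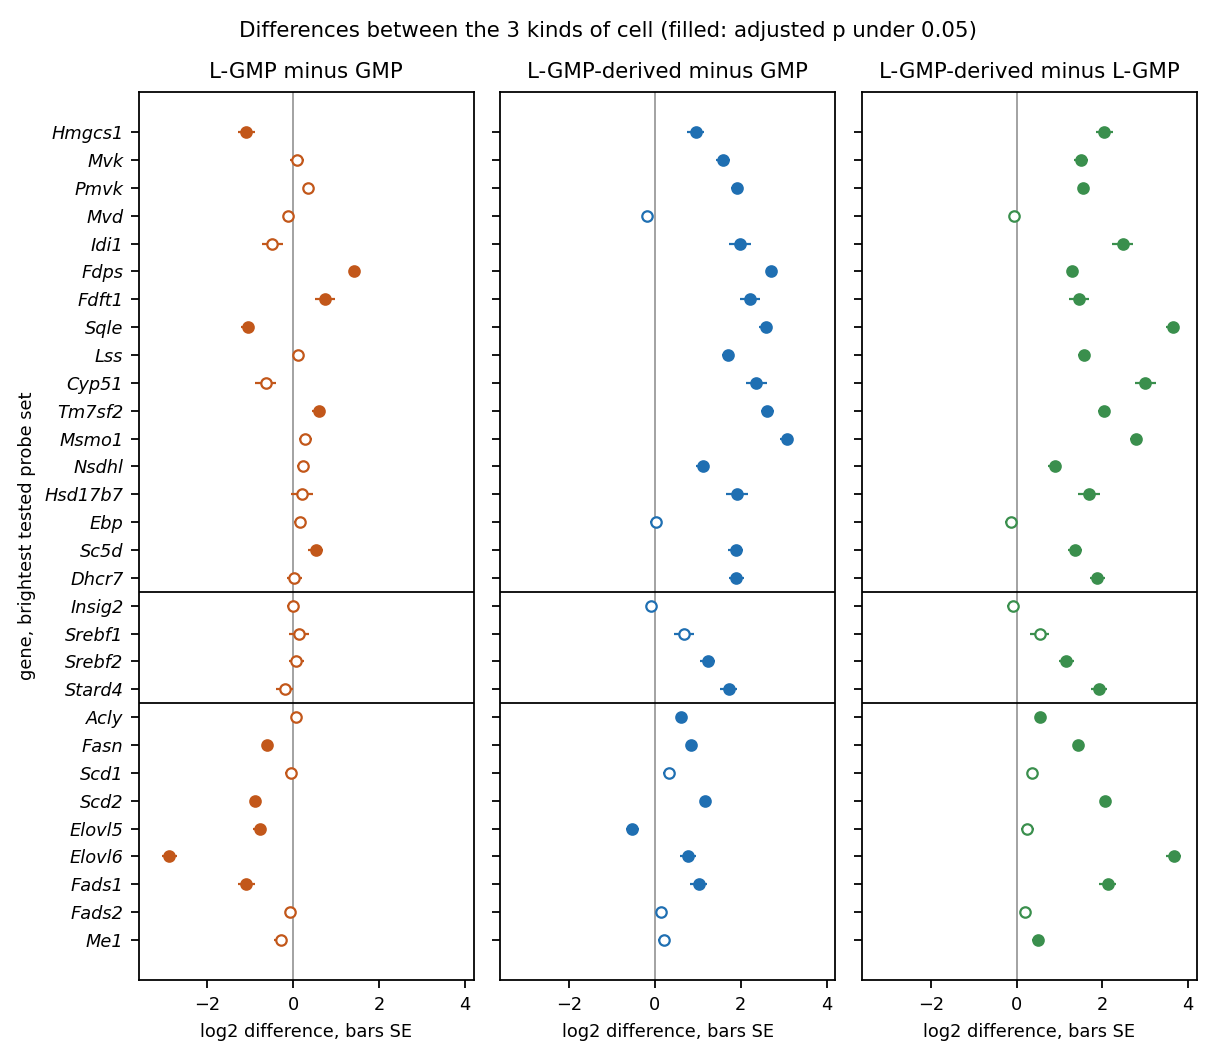
Log2 differences (x axis) of 30 genes (y axis) in the 3 comparisons, with bars for the standard error and filled points for an adjusted p under 0.05. The sterol genes other than Mvd and Ebp lie right of 0 in both comparisons of L-GMP-derived cells, and Elovl6 lies at -2.89, 0.77 and 3.66 from left to right.

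Of the regulators, Srebf2, the main activator of sterol genes, read 265, 268 and 299.9 in GMP, 356, 305 and 225 in L-GMP and 556, 649 and 759 in L-GMP-derived cells. GMP and L-GMP overlapped (adjusted p = 0.82), and L-GMP-derived cells were 2.34-fold above GMP (1.23 ± 0.18 SE, adjusted p = 0.00071). Srebf1, the activator best known for fatty acid genes, read 1062, 1702 and 1642 in GMP, 1873, 1841 and 1139 in L-GMP and 2749, 1998 and 2186 in L-GMP-derived cells. The L-GMP-derived arrays lay above all others, but the 1.59-fold difference from GMP did not pass (0.67 ± 0.23, adjusted p = 0.0552). It passed without L-GMP replicate 3 (0.0258), with array weights (0.0195) and with only the 6 arrays compared (0.0420). Insig2, which encodes a protein that holds these factors back, read 413, 347 and 391 in GMP, 433, 383 and 332 in L-GMP and 337, 367 and 375 in L-GMP-derived cells, overlapping throughout (adjusted p = 0.662 against GMP). Stard4, a cytosolic sterol carrier, read 520.5, 414 and 433 in GMP, 447, 388 and 354 in L-GMP and 1102, 1597 and 1877 in L-GMP-derived cells. It was 3.28-fold above GMP (adjusted p = 0.000129) and 3.78-fold above L-GMP (adjusted p = 5.4e-05), and its other probe set gave 3.30-fold and 3.75-fold.

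In the fatty acid branch, Elovl6, which encodes the elongase of saturated and monounsaturated chains, had the largest differences in both comparisons with L-GMP, and the fourth largest rise in L-GMP-derived cells over GMP. It read 679, 716 and 699 in GMP, 76.6, 96.5 and 113 in L-GMP and 1516, 1007 and 1096 in L-GMP-derived cells. No groups overlapped: L-GMP was 7.42-fold below GMP (-2.89 ± 0.18 SE, adjusted p = 2.38e-06), and L-GMP-derived cells were 1.70-fold above GMP (adjusted p = 0.0107) and 12.6-fold above L-GMP (3.66 ± 0.18, adjusted p = 4.49e-07). Its second probe set read 352, 311 and 294, then 34.6, 56.5 and 74.7, and 1018, 703 and 795, with the same 3 calls. Fads1, a desaturase of polyunsaturated chains, moved in the same order at 141, 138 and 158 in GMP, 80.2, 56.2 and 60.5 in L-GMP and 404, 232 and 274 in L-GMP-derived cells. It was at least 2.14-fold lower in L-GMP than in GMP (adjusted p = 0.00248; 0.144 under the raised floor) and 2.03-fold higher in L-GMP-derived cells (adjusted p = 0.00434).

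Scd2, a stearoyl-CoA desaturase, read 1583, 1336 and 1374 in GMP, 789, 755 and 748 in L-GMP and 3372, 2897 and 3376 in L-GMP-derived cells. The groups stood apart, L-GMP 1.87-fold below GMP (-0.90 ± 0.10 SE, adjusted p = 0.000118) and L-GMP-derived cells 2.25-fold above it (1.17 ± 0.10, adjusted p = 2.19e-05). Of its dimmer probe sets, 1 gave no call between L-GMP and GMP (0.03 ± 0.16, adjusted p = 0.917) and 1 the same call (-0.65 ± 0.18, adjusted p = 0.0243). Fasn, the fatty acid synthase gene, read 1811, 1673 and 1764 in GMP, 1215, 1147 and 1092 in L-GMP and 2844, 3156 and 3384 in L-GMP-derived cells. L-GMP was 1.52-fold below GMP (-0.60 ± 0.09, adjusted p = 0.000728), and L-GMP-derived cells were 1.78-fold above GMP (0.84 ± 0.09, adjusted p = 9.51e-05) and 2.71-fold above L-GMP (adjusted p = 2.61e-06). Acly, which supplies acetyl-CoA to both branches, read 3041, 3034 and 3071 in GMP, 3124, 3234 and 3233 in L-GMP and 3846, 4822 and 5353 in L-GMP-derived cells. L-GMP did not pass against GMP (adjusted p = 0.667), and L-GMP-derived cells were 1.52-fold above GMP (0.60 ± 0.10, adjusted p = 0.00163).

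Elovl5, the elongase of polyunsaturated chains, went its own way. It read 4074, 3799.6 and 4020.5 in GMP, 2505, 2354 and 2078 in L-GMP and 2039.7, 3286 and 3080.3 in L-GMP-derived cells. Both leukemic groups lay below GMP and overlapped each other: L-GMP was 1.72-fold lower (-0.78 ± 0.15 SE, adjusted p = 0.00383) and L-GMP-derived cells 1.44-fold lower (-0.53 ± 0.15, adjusted p = 0.0288). The latter call ended without GMP replicate 1, 2 or 3 (adjusted p of 0.0643 to 0.0884), without the filter (0.110) and without the intensity trend (0.0528), and a second probe set gave 1.63-fold lower (adjusted p = 0.00422). Against L-GMP the L-GMP-derived cells did not pass (0.25 ± 0.15, adjusted p = 0.253) except without L-GMP-derived replicate 1 (adjusted p = 0.00135) or with array weights (0.00341). Fads2, a desaturase acting before Fads1, read 504 to 561, 486 to 533 and 541 to 658 and passed in no comparison. Me1, the malic enzyme that supplies NADPH for lipid synthesis, read 102, 127 and 124 in GMP, 91.8, 91.6 and 102 in L-GMP and 146, 142 and 119 in L-GMP-derived cells. On this probe set it passed only as 1.42-fold higher in L-GMP-derived cells than in L-GMP (adjusted p = 0.0245), a call that ended without L-GMP replicate 1 or 2 or L-GMP-derived replicate 1 or 2 (adjusted p of 0.0555 to 0.0777) and under a floor raised to the 40th percentile (0.0574). With the mean over its probe sets Me1 also passed against GMP (adjusted p = 0.000514), which rests on the dimmer probe set given below.

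**Figure D3:**
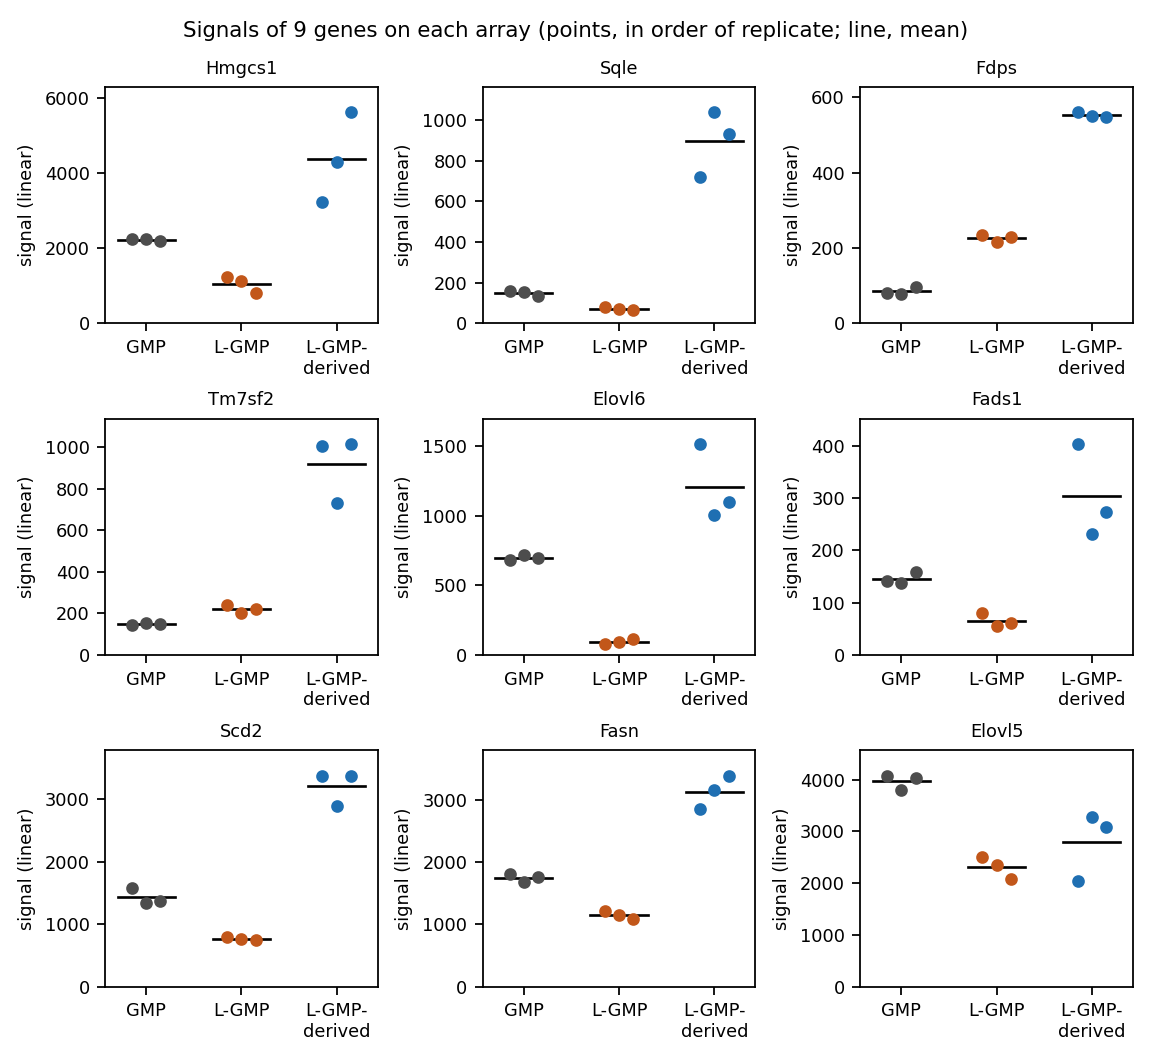
Signal on a linear axis (y) of 9 genes by group (x), with a point for each array and a line at the group mean. Hmgcs1, Sqle, Elovl6, Fads1, Scd2 and Fasn are lowest in L-GMP, Fdps and Tm7sf2 are lowest in GMP, and Elovl5 is highest in GMP.

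Probe sets of the same gene did not always move together. Of 16 genes with at least 2 tested probe sets, all probe sets were called one way for 9 in L-GMP-derived cells against GMP, only some were called for 6, and none for 1. For 0 genes were probe sets called in opposite directions. The 9 include Cyp51 and Scd2, whose dimmer probe sets were tested only through the L-GMP-derived arrays, so their agreement is no support for a rise. The same count over all tested genes was not made. For Mvd, the decarboxylase that ends the mevalonate steps, the brightest probe set read 642, 645 and 586 in GMP, 541, 556 and 625 in L-GMP and 598, 504 and 549.8 in L-GMP-derived cells, with no call. The second probe set of Mvd, whose probes may be shared with related transcripts, read 61.2, 59.9 and 42.2, then 66.1, 47.9 and 46.9, and 423, 556 and 675, at least 8.67-fold higher in L-GMP-derived cells than in GMP (adjusted p = 6.34e-07). Scd1, another stearoyl-CoA desaturase gene, showed the same split. Its brightest probe set read 528 to 637, 526 to 658 and 667 to 831 (adjusted p = 0.123 against GMP; 0.00615 with array weights), and its second read 19.7, 21.0 and 11.5 in GMP, 16.2, 22.1 and 16.4 in L-GMP and 602, 501 and 796 in L-GMP-derived cells, at least 9.95-fold higher (adjusted p = 4.42e-07). The second probe set of Me1 read 22.4 to 45.0, 20.6 to 34.7 and 161 to 383, at least 4.57-fold higher than in GMP (adjusted p = 0.000338). The second of Srebf2 read 269 to 318, 287 to 319 and 321 to 362 and was not called (1.18-fold, adjusted p = 0.156). The second of Sc5d read 172 to 217, 172 to 187 and 209 to 230.1 and was not called either (1.19-fold, adjusted p = 0.171), and that of Fdft1 is given above. Insig2 was the gene with no call from its 3 probe sets. Counting a gene where any tested probe set was called, 16 of 17 sterol genes and 7 of 9 fatty acid genes were higher in L-GMP-derived cells than in GMP, where 17.4% of all tested genes were; the same counts held against L-GMP, where 19.0% were. The genes this adds, Mvd and Scd1 in both comparisons and Me1 against GMP, come from the second probe sets just given, all 3 tested only through the L-GMP-derived arrays, so the added calls are no support for a rise. Probe sets called alike also differed in size: against GMP the second ones gave 6.79-fold for Idi1, 3.06-fold for Cyp51 and 2.60-fold for Elovl6, where the brightest gave 3.95, 5.12 and 1.70.

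**Figure D4:**
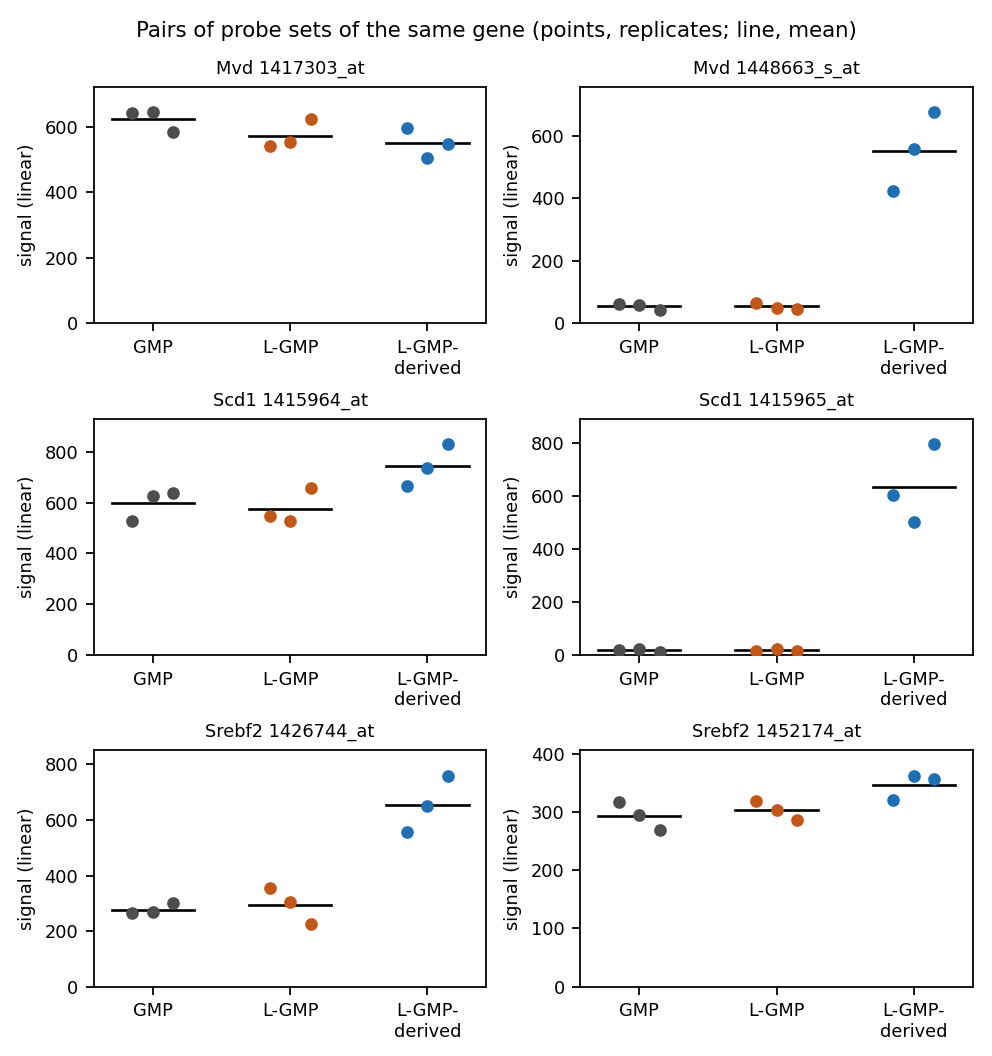
Signal on a linear axis (y) by group (x) for pairs of probe sets of Mvd, Scd1 and Srebf2, with a point for each array and a line at the mean. The L-GMP-derived arrays stand far above the others for the right probe sets of Mvd and Scd1 and the left one of Srebf2, and not, or less, for their partners.

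The L-GMP-derived arrays also varied among themselves. Of the 15 sterol genes that were higher than in GMP, replicate 1 was the lowest of the 3 for 11, which is 73.3%, against 54.0% of all 1201 genes that were higher than in GMP. Hmgcs1 (3234 on replicate 1, 4307 and 5631 on the others), Hsd17b7 (309, 596 and 689) and Idi1 (1521, 2672 and 2665) showed this. Elovl6 and Fads1 had their highest value on replicate 1. Markers of GMP, macrophages and late neutrophils differed on the same array, where Mpo read 3581 against 425 and 319, and Csf1r 820.1 against 383 and 402, while Adgre1 read 402 against 1253 and 1297 and Ngp 155 against 2119 and 2178. Their part in the difference was not tested.

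Promoters of these genes were searched because the sterol genes moved together in L-GMP-derived cells. RefSeq windows (GRCm38.p6) of 300 bases, 250 before and 50 after an annotated start, were at hand for 26 of the 33 genes. In them were sought, on both strands, the sterol regulatory element TCACNCCAC bound by the Srebf factors, the NF-Y box CCAAT, the Sp1 box GGGCGG and the E-box CACGTG, none of which contains another, though matches may overlap. A CCAAT box was present for 14 of 15 sterol enzyme genes (93.3%), 4 of 4 regulators and 4 of 7 fatty acid genes (57.1%), against 42.5% of 7259 tested genes with a window. A GGGCGG box was present for 14 of 15 sterol genes (93.3%), 4 of 4 regulators and 3 of 7 fatty acid genes (42.9%), against 66.2%. A gene counted where any of its windows matched, and the 4 regulators had 8 windows. By window, CCAAT was present in 77.8% for sterol genes, 62.5% for regulators and 50.0% for fatty acid genes, against 37.1% for tested genes. For GGGCGG these shares were 83.3%, 75.0% and 37.5%, against 59.9%. The strict TCACNCCAC form was found for 1 sterol gene, Hmgcs1, and for 0 of the 4 regulators and 0 of the 7 fatty acid genes, against 1.49%. The E-box was found for 3 of 15, 1 of 4 and 1 of 7, against 11.5%. Ebp, which did not rise, held 2 CCAAT boxes, as did Mvd, and Elovl6 held none of the 4 motifs. A match describes the letters of a window and is not a shown binding site. The motif shares leave out Fdps, Fdft1, Sqle, Stard4, Scd1, Scd2 and Fads1, the 7 genes without a window. They include Acat2 and Insig1, whose signals are not analysed.

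The 250 bases before the start are shown for 5 genes. Hmgcs1 is the gene with the sterol regulatory element, and Msmo1 had the largest rise of a sterol gene over GMP. Ebp is a sterol gene that did not rise, as Mvd did not on its brightest probe set. Fasn and Elovl6 stand for the fatty acid branch. Msmo1 and Ebp were chosen after their values and matches were seen. Capitals mark TCACNCCAC and CCAAT on either strand (CCAAT reads ATTGG on the opposite strand), 5' to 3' along the gene.
Hmgcs1, chr13:119690101-119690350, plus strand: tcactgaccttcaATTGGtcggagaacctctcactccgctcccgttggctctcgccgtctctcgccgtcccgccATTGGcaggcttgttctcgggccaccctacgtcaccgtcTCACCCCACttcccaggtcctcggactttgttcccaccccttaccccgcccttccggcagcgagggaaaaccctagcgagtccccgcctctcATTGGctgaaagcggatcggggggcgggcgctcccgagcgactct
Msmo1, chr8:64733579-64733828, minus strand: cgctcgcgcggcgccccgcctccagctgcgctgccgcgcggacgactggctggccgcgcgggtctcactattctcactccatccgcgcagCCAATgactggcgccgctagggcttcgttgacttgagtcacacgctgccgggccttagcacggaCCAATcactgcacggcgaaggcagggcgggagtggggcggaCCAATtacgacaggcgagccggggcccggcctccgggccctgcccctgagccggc
Ebp, chrX:8193513-8193762, minus strand: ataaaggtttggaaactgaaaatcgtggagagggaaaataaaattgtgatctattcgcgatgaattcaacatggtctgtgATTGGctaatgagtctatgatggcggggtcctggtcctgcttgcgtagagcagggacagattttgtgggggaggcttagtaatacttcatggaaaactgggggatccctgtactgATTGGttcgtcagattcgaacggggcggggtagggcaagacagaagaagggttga
Fasn, chr11:120824548-120824797, minus strand: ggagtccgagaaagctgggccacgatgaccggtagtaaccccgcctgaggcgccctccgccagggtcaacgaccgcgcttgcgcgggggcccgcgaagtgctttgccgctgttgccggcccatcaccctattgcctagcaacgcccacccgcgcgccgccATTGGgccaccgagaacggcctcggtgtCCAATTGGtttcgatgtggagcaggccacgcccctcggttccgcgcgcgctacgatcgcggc
Elovl6, chr3:129532136-129532385, plus strand: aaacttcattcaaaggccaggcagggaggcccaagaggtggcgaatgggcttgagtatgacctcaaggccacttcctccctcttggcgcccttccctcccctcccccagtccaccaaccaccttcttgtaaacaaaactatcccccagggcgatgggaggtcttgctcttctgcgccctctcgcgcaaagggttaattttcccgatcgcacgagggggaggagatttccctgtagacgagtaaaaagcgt
In Hmgcs1 the sterol regulatory element begins at base -137, counted back from the annotated start, between CCAAT boxes at -237, -176 and -45. Those of Msmo1 begin at -160, -96 and -55, those of Ebp at -170 and -55, and those of Fasn at -90, -62 and -59, of which the last 2 overlap.

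**Figure D5:**
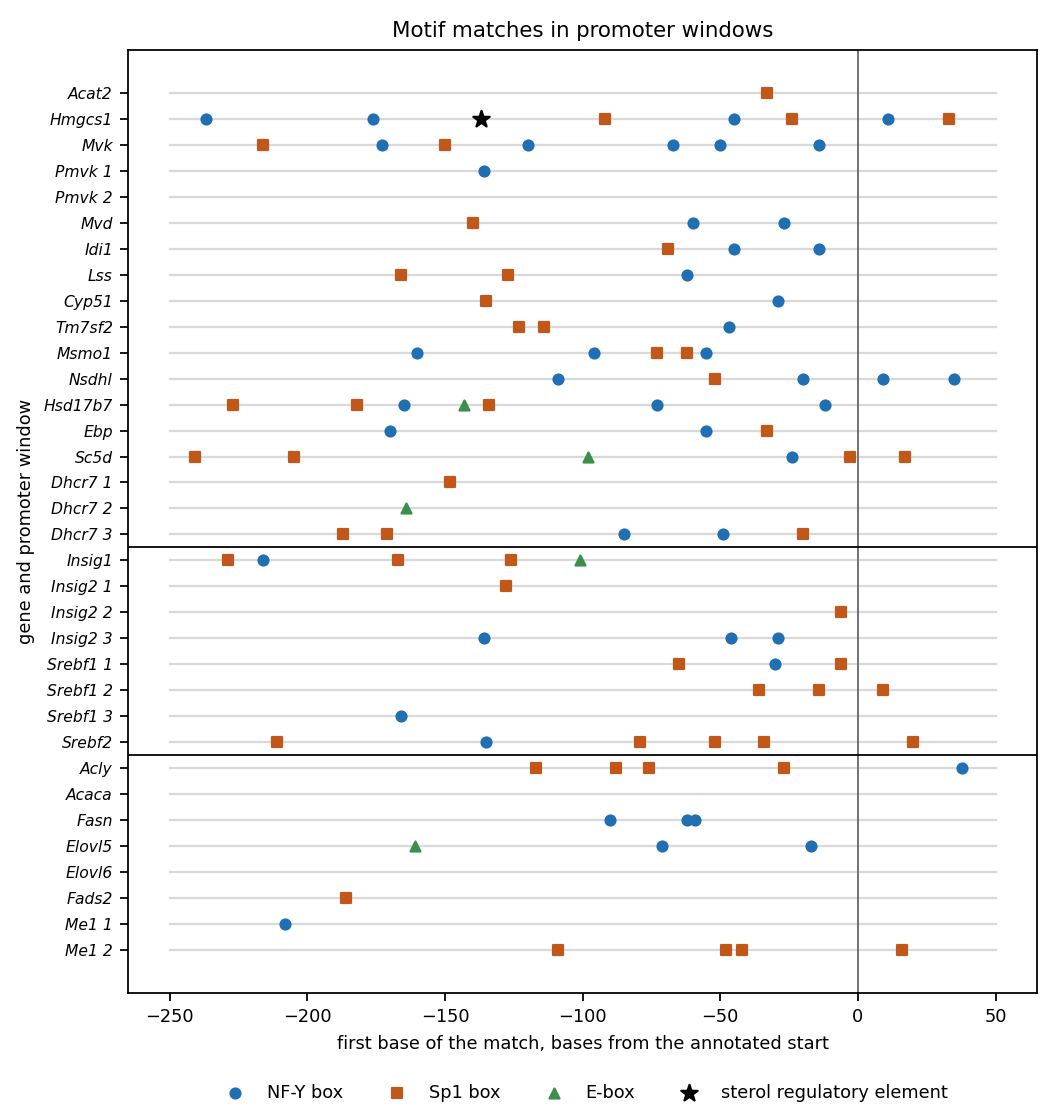
Positions of the motif matches (x axis, bases from the annotated start) in each promoter window of 26 genes (y axis; numbered where a gene has several windows). CCAAT boxes lie in most rows of the sterol block at the top, and the single sterol regulatory element lies in Hmgcs1.

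Other genes of these pathways, a list of 18 sterol and 23 fatty acid genes outside the 33, moved less uniformly. Of the 10 tested on the sterol side, 0 were higher and 2 lower in L-GMP-derived cells than in GMP, where 13.4% and 10.7% of all tested genes were; by any tested probe set 1 was higher, Aacs (2.44-fold, adjusted p = 0.00171). The 2 lower were the sterol exporters Abcg1, which read 1024, 1194 and 1149 in GMP, 1093, 954 and 1140.0 in L-GMP and 344, 251 and 298 in L-GMP-derived cells (3.79-fold lower than GMP, adjusted p = 6.73e-06), and Abca1, at 155 to 198, 78.5 to 114 and 27.9 to 43.1 (at least 2.80-fold lower, adjusted p = 0.000135). Abca1 was tested only through the GMP arrays, so its fall was built into the selection. Scap, which escorts the Srebf factors, fell 1.38-fold in L-GMP against GMP (adjusted p = 0.0114), and Mylip, a ligase that lowers lipoprotein receptors, rose 1.88-fold (adjusted p = 0.000102). In all, 2 of the 10 were higher and 3 lower in L-GMP than in GMP (13.1% and 12.8% of all genes), and 0 were higher and 5 lower in L-GMP-derived cells than in L-GMP (16.6% and 14.1%).

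Of the 17 tested on the fatty acid side, 3 were higher and 4 lower in L-GMP than in GMP, 2 were higher and 0 lower in L-GMP-derived cells than in GMP, and 6 were higher and 2 lower in L-GMP-derived cells than in L-GMP, beside the same shares of all genes. By any tested probe set 4 were higher in L-GMP-derived cells than in GMP. Among those lower in L-GMP, Hacd3, a dehydratase of chain elongation, fell from 2652 ± 93.9 (SD, n = 3) in GMP to 1583 ± 97.0 and read 2513 ± 205 in L-GMP-derived cells (1.68-fold lower in L-GMP than in GMP, limma adjusted p = 0.000118). Hsd17b12, the keto-reductase of elongation, read 533 ± 19.4, 338 ± 55.2 and 534 ± 68.7 (1.59-fold lower, adjusted p = 0.00732), and Gpam, which attaches fatty acids to glycerol phosphate, 1049.8 ± 19.3, 681 ± 33.7 and 1075 ± 59.5 (1.54-fold lower, adjusted p = 0.00107). Other elongation genes went the other way: Tecr and Hacd2 were called higher in L-GMP than in GMP. Hacd2 was also called lower in L-GMP-derived cells than in L-GMP. Pgd, an enzyme that yields NADPH, rose in both leukemic groups, 1.65-fold in L-GMP (adjusted p = 3.1e-05) and 1.59-fold in L-GMP-derived cells (adjusted p = 5.56e-05), and Elovl1, an elongase of very long chains, rose 1.59-fold in L-GMP-derived cells over GMP (adjusted p = 0.000858).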

How the data were processed

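RNA of 9 samples was read on Affymetrix arrays. The authors deposited 1 table of intensity values, a linear signal per probe set and array; MAS5 (version 5) is named per the submitters' processing notes, while the settings for background, summary and scaling were not given in the sources used here. Trimmed means of the arrays (2% off each end) lay within 4.02% of their mean, and the deposited scaling was kept; 0.939% of the 204210 values were negative.

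Groups came from titles and source names; the L-GMP-derived group was assigned by elimination. Signals were raised to the 25th percentile (62.4) before taking log2. Tested were probe sets whose signal passed 111, the 40th percentile, on 3 arrays or more, without 64 control probe sets. Differences were tested with limma 3.58.1 (R 4.3.3; lmFit, contrasts.fit, eBayes with an intensity trend), two-sided, over all 9 arrays. Genes were named from the platform annotation: 20393 probe sets had 1 symbol, 691 several and 1606 none listed. A gene stands for its brightest tested probe set. The members and lists were chosen with earlier results of these data known. Named in full were, for each comparison and branch, up to 6 genes past the threshold with the largest change, and the regulators. The fit was tested on simulated data. Promoter sequences are RefSeq's. Of the other pathway genes, 11 without a named probe set are not analysed here. Alternatives in scaling, floor, filter, trend, weights, probe sets and arrays, the replicate number as a block among them, are given in the closing section.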

Additional observations from a re-analysis of the deposited data

How the results depend on the processing

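The counts of genes called were recomputed under 22 alternatives each, 2 of which (any probe set of the gene, and leaving out genes that would not be tested without the arrays of 1 group) were chosen after seeing the data, as was leaving out arrays of the third group. The sterol count in L-GMP-derived cells was 11 to 16 against GMP and 11 to 16 against L-GMP (15 in the report), with 0 lower throughout. The fatty acid count was 4 to 5 in L-GMP against GMP (5 in the report), 4 to 8 in L-GMP-derived cells against GMP (6) and 5 to 8 against L-GMP (6). The sterol count in L-GMP against GMP, 6 in the report, was 3 with the replicate block (1 higher and 2 lower) and 4 to 8 otherwise. Whether replicate numbers pair the arrays is not known. Deviations from group means correlated at -0.309 to 0.170 between same-numbered arrays and at -0.185 to 0.300 between others. These ranges overlap, and deviations within groups of 3 are not independent, so they cannot decide it. With the block, Hmgcs1 (adjusted p = 0.0581), Elovl6 (0.110) and Elovl5 (0.199) lost their calls in L-GMP-derived cells against GMP, Fdft1 (0.156), Sc5d (0.185), Tm7sf2 (0.113) and Elovl5 (0.0607) theirs in L-GMP against GMP, and Me1 (0.0595) its call between the leukemic groups. Without probe sets of shared binding Fdft1 turned to -0.23 in L-GMP-derived cells against L-GMP (adjusted p = 0.620) and lost its call against GMP (0.179). With the mean over probe sets Mvd rose by 1.47 against GMP and 1.51 against L-GMP.

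The other changes of sign were of differences not called in the report, and none passed after the change. In L-GMP against GMP, values without single arrays ran from -0.0814 to 0.0868 for Dhcr7, -0.100 to 0.0916 for Insig2, -0.0833 to 0.370 for Srebf1, -0.0794 to 0.251 for Srebf2 and -0.150 to 0.0109 for Scd1. Insig2 was 0.0087 with array weights and 0.0241 with the replicate block, and Srebf1 -0.21 with the block. In L-GMP-derived cells against GMP, Ebp ran from -0.0619 to 0.120 without single arrays and was -0.0012 with equal trimmed means and -0.0890 with the block; Insig2 was 0.10 with the mean over probe sets. Against L-GMP, Mvd ran from -0.122 to 0.0025 and Insig2 from -0.181 to 0.0104 without single arrays, and Insig2 was 0.14 with the mean over probe sets. The cause of these changes was not tested. With the floor at the 40th percentile, Mvk, Pmvk and Msmo1 gave no value in L-GMP against GMP, as every array lay at the floor. Groups of 3 arrays and signals near the floor limit every value.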
